A study of Mus musculus with 15 samples.

Results

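The 5 kainate receptor subunit genes (*Grik1*, *Grik2*, *Grik3*, *Grik4* and *Grik5*) and the genes of their auxiliary subunits (*Neto1* and *Neto2*) were followed through 2 expression tables of sorted embryonic interneurons. The members were taken by gene symbol, and all 7 were found in both tables, among 26835 genes in the *Lhx6* table and 25714 genes in the *Mtg8* table. The family was selected on earlier results of these same mutant and control libraries, so its differences are given as a description. Where a member passed a threshold of the test over all genes, this is given as a mark only, and no p-value of a member is printed.

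Kainate receptors are glutamate-gated ion channels built from several subunits. *Grik1*, *Grik2* and *Grik3* encode GluK1, GluK2 and GluK3, which form channels by themselves, whereas *Grik4* and *Grik5* encode GluK4 and GluK5, which have high affinity for kainate and reach the cell surface together with one of the other subunits. *Neto1* and *Neto2* encode transmembrane proteins with CUB domains that join kainate receptors and change their gating, and NETO1 has also been linked to NMDA receptors. In GABAergic interneurons kainate receptors are known to act in synaptic transmission and in excitability, and migrating interneurons can sense ambient glutamate.

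Each of the 15 libraries was made from the YFP-positive cortical cells of 1 mouse embryo at E14.5. All embryos were of a mixed C57BL6/CBA strain and carried Nkx2-1-Cre and the R26R-YFP fl/fl reporter, so YFP marks cells whose ancestors expressed Nkx2-1, mainly those of the medial ganglionic eminence (MGE), the source of somatostatin and parvalbumin interneurons. The *Lhx6* table held 4 Lhx6+/+ controls and 5 Lhx6-/- littermate mutants. The *Mtg8* table held 3 controls labelled as Mtg8+/+ and 3 libraries labelled as Mtg8-/- littermates. LHX6 is a LIM homeodomain transcription factor of MGE-derived interneurons, MTG8 is a transcriptional co-regulator, and the mutant genotypes are given as germline, not limited to the sorted lineage.

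The targeted genes were examined first. In normalized counts, *Lhx6* was at 7247 ± 1093 (SD, n = 4) in its controls and fell to 331 ± 99.7 (n = 5) in its mutants. *Runx1t1*, the gene of MTG8, was at 8891 ± 1219 (SD) in the 3 *Mtg8* controls and at 12845 ± 944 in the 3 labelled mutants, each of them above every control. The latter are therefore named by their label throughout, and every direction in that table is the direction of the labelled groups. Of the MGE interneuron markers, *Sst* had a mean of 16695 normalized counts in *Mtg8* controls and 6615 in the labelled mutants, and *Npy* 5478 and 2583. At an adjusted p under 0.05 over all genes, limma called neither and DESeq2 on the recovered reads called both, and they were chosen after their values were seen. The study's methods list an *Mtg8*-LacZ knock-in line, and which *Runx1t1* exons its allele leaves transcribed was not analysed here. Reads counted to the listed genes, from which the authors had removed sex-linked genes, ranged from 12218422 to 22053032 per library. Of 8 GABAergic markers 7 were measured, with none at 0 throughout a group, and the summed level of 10 MGE interneuron markers was 37729 to 44165 normalized counts in *Lhx6* controls and 61686 to 62560 in *Mtg8* controls. Some libraries had names with a date and others names without one. All 4 *Lhx6* controls had undated names, and of the *Lhx6* mutants only mutant 6 did, so that name style and genotype can be compared apart only through that library. Names also held a number that some libraries share. *Lhx6* controls 1 and 2 share it with mutant 6. *Mtg8* controls 1 and 2 share it, and the date before it, with labelled mutant 2. Within a single group, *Lhx6* controls 3 and 4 share a number, and *Lhx6* mutants 2 and 5 share a number and a date. What the number stands for is not given in the sources used here. Between *Lhx6* controls 1 and 2 and mutant 6, the log2 difference was -6.05 for *Neto1*, -1.01 for *Grik2* and 0.49 for *Grik3*.

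For *Grik2* and *Grik3*, the channel-forming subunits with the lowest and the highest log2 difference in the *Lhx6* table, the sequence around the annotated gene start is shown first. The windows run from 250 bases before to 50 bases after the start, are taken from RefSeq on GRCm38.p6, and are written 5′ to 3′ on the strand of the gene with each CG dinucleotide in capitals. The *Grik2* window is chr10:49788705-49789004 on the minus strand, and the *Grik3* window is chr4:125490446-125490745 on the plus strand.
Grik2: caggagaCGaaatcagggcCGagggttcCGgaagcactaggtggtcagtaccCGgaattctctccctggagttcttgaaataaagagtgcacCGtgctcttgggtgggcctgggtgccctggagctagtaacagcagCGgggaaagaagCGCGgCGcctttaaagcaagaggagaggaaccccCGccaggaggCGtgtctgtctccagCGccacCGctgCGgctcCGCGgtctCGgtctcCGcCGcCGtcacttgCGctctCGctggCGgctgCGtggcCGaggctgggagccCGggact
Grik3: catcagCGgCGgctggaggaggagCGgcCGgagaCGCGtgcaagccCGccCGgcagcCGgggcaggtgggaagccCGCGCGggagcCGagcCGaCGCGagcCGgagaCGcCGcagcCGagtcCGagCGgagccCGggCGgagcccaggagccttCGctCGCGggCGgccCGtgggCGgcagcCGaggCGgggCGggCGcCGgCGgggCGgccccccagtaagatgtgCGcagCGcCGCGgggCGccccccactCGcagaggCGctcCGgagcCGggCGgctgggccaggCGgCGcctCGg
The *Grik2* window held 26 CG dinucleotides at a GC content of 64.7%, and the *Grik3* window held 50 at 82%, against a median of 7 and 52.7% over 32851 windows of the same length. CG reads the same on both strands, and 94.6% of all windows held at least 1. The letters TAAT, the core shared by many homeodomain sites, were searched on both strands (TAAT and ATTA). They occurred in 58% of all windows, 0 times in those of *Grik2*, *Grik3*, *Grik4* and *Grik5*, 0 times in one *Neto2* window and 4 times in the other. The longer TAATTA reads the same on both strands and contains TAAT. It occurred in 5.29% of all windows and 0 times in the 6 windows searched, which belong to 5 of the 7 members. No window of *Grik1* or *Neto1* was searched, so the counts say nothing about these genes. The counts are matches of letters in a short window and show no binding.

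*Neto1* was nearly absent from *Lhx6* mutant cells, and *Grik2* fell to less than 50% of its control level. The other 5 members did not pass the test, with mean levels that were higher in the mutants for *Grik1*, *Grik3*, *Grik4* and *Grik5* and slightly lower for *Neto2*. Of these 5, *Grik3* was higher at an unadjusted p under 0.05, as were 1190 (7.11%) of all genes tested. Thus 2 of 7 members were called lower and 0 higher, calls being genes with an adjusted p under 0.05 by limma over the whole table. Among all 16727 genes tested, 114 (0.682%) were called lower and 172 (1.03%) higher. DESeq2 on the recovered reads, whose calls are given beside those of limma, called 262 (1.57%) lower and 510 (3.05%) higher. The groups did not overlap, with every mutant below every control, for *Neto1* and *Grik2*, as for 507 (3.03%) of the genes tested. Because these same differences were known when the family was chosen, nothing is read from these shares.

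**Figure D1:**
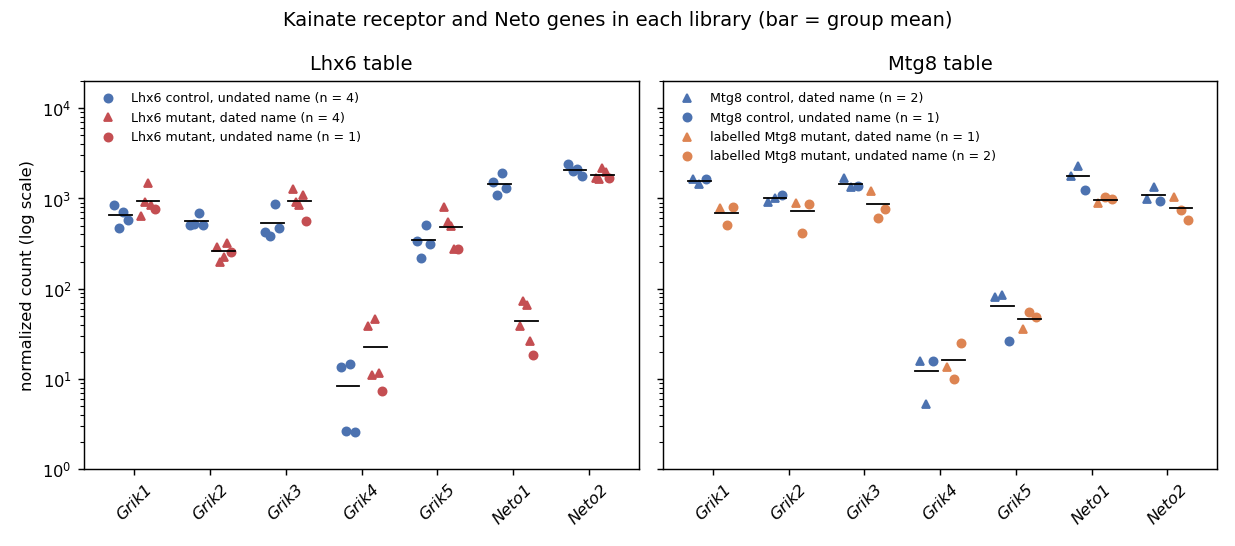
Normalized counts of the 7 genes in each library (y axis, log scale), with 1 point per library, the *Lhx6* table on the left and the *Mtg8* table on the right. Triangles are libraries with dated names, circles those with undated names, and bars are group means. In the *Lhx6* table all mutant points lie below all control points for *Grik2* and *Neto1*, and in the *Mtg8* table those of the labelled mutants do so for *Grik1*, *Grik2*, *Grik3* and *Neto1*.

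*Neto1* (ENSMUSG00000050321.3, GRCm38 chromosome 18 from 86394952 to 86506718, plus strand) encodes an auxiliary subunit that alters receptor gating. Its normalized counts were 1531, 1094, 1891 and 1322 in controls 1 to 4, and 38.4, 73.1, 66.1, 26.2 and 18.57 in mutants 1, 2, 3, 5 and 6. The highest mutant was far below the lowest control. The mean went from 1459.6 ± 339 (SD, n = 4) to 44.5 ± 24.2 (SD, n = 5), which is 3.05% of the control level, and the log2 difference was -5.16 (standard error 0.37). Only 4 of the 16727 genes tested had a lower log2 difference. Mutant 6, the library that shared its name style with the controls, was the lowest of all, and against the controls it gave a log2 difference of -6.19. In each mutant the value rested on few reads, from 15 in mutant 6 to 79 in mutant 2.

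The exons of *Neto1* share 219 bases, 2.62% of their length, with *Gm50384*, a long non-coding RNA gene on the other strand, and whether the counting used strand is not given in the sources used here. *Gm50384* was at 0.886 to 11.1 normalized counts in *Lhx6* controls and at 0 to 0.969 in *Lhx6* mutants. Reads from the other strand within the shared bases were not measured apart, and their part in the *Neto1* counts was not tested. Of the 10 MGE markers, 8 had negative log2 differences in *Lhx6* mutants and 2 positive ones, *Maf* (0.52) and *Erbb4* (0.02). By limma and by DESeq2, 0 were called higher and 6 lower. One of them is *Lhx6* itself, the targeted gene, and of the other 9 genes 5 were called lower, with a summed level of 31917 to 36613 normalized counts in controls and 10649 to 24360 in mutants. Markers of interneurons of the caudal ganglionic eminence (CGE) summed to 2474 to 3450 in controls and 4448 to 7629 in mutants, without overlap, with 1 of 6 called lower (*Htr3a*) and 0 called higher by limma. DESeq2 called the same number lower and 3 higher, *Sp8* (log2 difference 1.03), *Nr2f2* (0.88) and *Sp9* (1.19). Of 7 GABAergic markers 2, *Dlx5* and *Dlx6*, were called higher in *Lhx6* mutants by both tools. Of 8 radial glia markers 6 had positive log2 differences, with 0 called by limma and 1, *Sox2* (log2 difference 0.96), called higher by DESeq2, and their sums overlapped at 8909 to 10935 in controls and 8077 to 15377 in mutants. The red blood cell markers were negative for 5 of 5, with 0 called by either tool. Their sums overlapped, at 5966 to 58615 in controls and 1798 to 20401 in mutants. Of the oligodendrocyte precursor and endothelial markers, 2 of the 3 tested in each list were positive and 0 called. *Pdgfra* (log2 difference 2.45) and *Pecam1* (1.09) were higher at an unadjusted p under 0.05 in limma. The microglia markers were positive for 3 of the 5 tested, with 0 called. The part of these changes in the differences of the kainate receptor and Neto genes was not tested. In a bulk sample, fewer cells of a kind and less RNA per cell cannot be told apart.

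*Grik2* (ENSMUSG00000056073.16, GRCm38 chromosome 10 from 49094833 to 49788766, minus strand) encodes GluK2, a widely expressed channel-forming subunit. Its normalized counts were 506, 523, 687 and 514 in controls 1 to 4. In mutants 1, 2, 3, 5 and 6 they were 290, 198, 227, 324 and 255. Controls 1, 2 and 4 lay close together with control 3 above them, and the highest mutant stayed below the lowest control. The mean went from 557 ± 86.8 (SD, n = 4) to 259 ± 49.6 (SD, n = 5), 46.4% of the control level, with a log2 difference of -1.11 (standard error 0.19). The difference of mutant 6 from the controls was also -1.11. Several other annotated genes lie within *Grik2* on the same strand, and they share 0 exon bases with it. With name style as a covariate the log2 difference was -1.11, and with the replicate number as a block it was -1.26, and neither of these fits called it.

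*Grik3* (ENSMUSG00000001985.9, GRCm38 chromosome 4 from 125490700 to 125714173, plus strand) encodes GluK3, a channel-forming subunit of low glutamate sensitivity. Its normalized counts were 421, 380, 872 and 469 in controls 1 to 4 and 1265, 924, 857, 1094 and 562 in mutants 1, 2, 3, 5 and 6. Control 3 was above mutants 3 and 6, so the groups overlapped. The control mean of 536 ± 227 (SD, n = 4) stood against a mutant mean of 940.2 ± 264 (n = 5), a log2 difference of 0.84 (standard error 0.27) that was not called. Mutant 6 alone differed from the controls by 0.15, whereas the mutants with dated names were at 857 to 1265, and the part of name style in the difference was not tested. The processed pseudogene *Ftl2-ps*, within a *Grik3* intron, was abundant and shares 0 exon bases with *Grik3*.

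*Grik1* (ENSMUSG00000022935.16, GRCm38 chromosome 16 from 87895900 to 88290265, minus strand) encodes GluK1, the subunit most closely associated with interneurons. Its normalized counts were 851, 469, 701.97 and 579 in controls 1 to 4, and 640, 913, 1473, 854 and 770 in mutants 1, 2, 3, 5 and 6. Mutants 2, 3 and 5 were above every control, and mutants 1 and 6 lay among the controls. The log2 difference of 0.49 (standard error 0.24) was not called, and mutant 6 alone gave 0.28.

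The genes of both high-affinity subunits overlapped between the groups. *Grik5* (ENSMUSG00000003378.9, GRCm38 chromosome 7 from 25009849 to 25072346, minus strand), which encodes GluK5, was at 340, 217, 508 and 312 normalized counts in controls 1 to 4. It was at 794, 546, 499, 276 and 277 in mutants 1, 2, 3, 5 and 6. Mutants 1 and 2 were above every control and mutants 5 and 6 were below the control mean, so the log2 difference of 0.42 (standard error 0.33) had no common direction, and it turned to -0.25 for mutant 6 alone. *Grik4* (ENSMUSG00000032017.14, GRCm38 chromosome 9 from 42518135 to 42944493, minus strand), which encodes GluK4, was close to the limit of detection. It had 3 to 16 reads in the controls and 6 to 49 in the mutants, and its log2 difference was 1.35 (standard error 0.75), with 0.19 for mutant 6 alone.

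*Neto2* (ENSMUSG00000036902.11, GRCm38 chromosome 8 from 85636588 to 85700924, minus strand), the second auxiliary subunit, kept most of its level. Its normalized counts were 2383, 1991, 2143 and 1778 in controls 1 to 4 and 1688, 1636, 2165, 1984 and 1684 in mutants 1, 2, 3, 5 and 6. Mutants 1, 2 and 6 were below every control, and mutants 3 and 5 lay among them. The mean was 88.3% of the control level, with a log2 difference of -0.18 (standard error 0.14) that was not called. Its exons share 20 bases, 0.326% of their length, with *Mir8109* on the other strand, which was at 1.92 normalized counts or fewer in the *Lhx6* table.

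**Figure D2:**
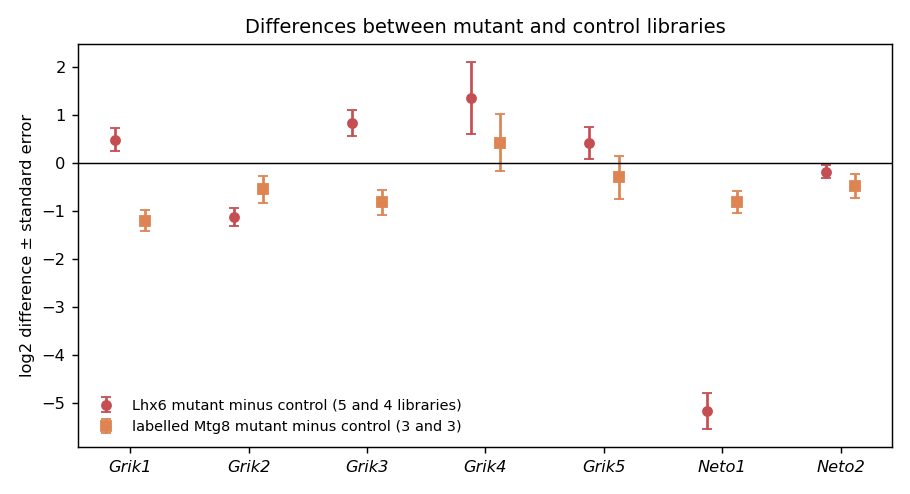
Log2 difference between mutant and control libraries for each gene (y axis), with bars of 1 standard error from limma. Circles are the *Lhx6* table and squares the libraries labelled *Mtg8* mutant. *Neto1* stands at -5.16 in the *Lhx6* table and at -0.82 in the *Mtg8* table, and *Grik1* and *Grik3* lie above 0 in the first and below 0 in the second.

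limma called none of the 7 members in the *Mtg8* table, in either direction, and none of the 16132 genes tested (0%). All members but *Grik4* had lower means in the libraries labelled *Mtg8* mutant. At an unadjusted p under 0.05, *Grik1*, *Grik3* and *Neto1* were lower and 0 members were higher, against 393 (2.44%) of all genes tested that were lower. The labelled groups did not overlap, with every labelled mutant below every control, for *Grik1*, *Grik2*, *Grik3* and *Neto1*, as for 891 (5.52%) of the genes tested. edgeR on the recovered reads called 0 members, and DESeq2 called 1, *Grik1*, among 10 genes (0.062%) that it called lower, beside 22 (0.136%) that it called higher. limma called *Grik1* lower when labelled mutant 2 was left out, among 4 of 16162 genes (0.0247%), and with the replicate number as a block, among 12 genes (0.0744%). As in the *Lhx6* table, the family was chosen with these values known and nothing is read from the shares.

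*Grik1* had the lowest log2 difference of the 7. Its normalized counts were 1638, 1455 and 1627 in controls 1, 2 and 4 and 782, 513 and 795 in the libraries labelled mutant 2, 3 and 4. The controls lay close together, and the highest labelled mutant was well below the lowest control. The mean went from 1573 ± 103 (SD, n = 3) to 697 ± 159 (SD, n = 3), 44.3% of the control level, with a log2 difference of -1.20 (standard error 0.22). The difference was -0.98 among dated names (2 controls and 1 labelled mutant) and -1.35 among undated names (1 control and 2 labelled mutants).

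*Neto1* was at 1753, 2279 and 1255 normalized counts in controls 1, 2 and 4 and at 892, 1038 and 991 in the libraries labelled mutant 2, 3 and 4. The labelled mutants were close to each other and the controls were spread, with control 4 nearest to them. The mean was 55.2% of the control level and the log2 difference was -0.82 (standard error 0.23), with -1.16 among dated and -0.31 among undated names. Unlike in *Lhx6* mutants, where 15 to 79 reads remained, the labelled mutants held 787 to 1296 *Neto1* reads. *Gm50384*, on the other strand, was at 12.8 normalized counts or fewer in these libraries.

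*Grik3* was at 1671, 1333 and 1372 normalized counts in controls 1, 2 and 4, and at 1210, 604 and 763 in the libraries labelled mutant 2, 3 and 4. Labelled mutant 2 lay under the lowest control and the other two further down. The log2 difference was -0.82 (standard error 0.25), with -0.30 among dated and -1.01 among undated names. *Grik2* was at 905, 1004 and 1105 in the controls and 898, 411 and 871 in the labelled mutants. Its groups were separated by only a few counts, from 898 in labelled mutant 2 to 905 in control 1, and its log2 difference of -0.55 (standard error 0.29) became -0.09 among dated names and -0.18 without labelled mutant 3.

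The remaining members overlapped between the labelled groups. *Neto2* was at 976, 1345 and 937 normalized counts in the controls and 1040, 752 and 578 in the labelled mutants, a log2 difference of -0.48 (standard error 0.25), with -0.14 among dated and -0.51 among undated names and -0.28 without labelled mutant 4. *Grik5* was at 81.6, 84.2 and 26.4 in the controls and 36.3, 55.1 and 48.9 in the labelled mutants. The undated control 4 had the lowest *Grik5* of all 6 libraries, and the log2 difference of -0.30 (standard error 0.45) was -1.17 among dated and 0.95 among undated names. *Grik4* rested on 5 to 16 reads in the controls and 11 to 33 in the labelled mutants, with a log2 difference of 0.43 (standard error 0.59).

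Markers of other cells were compared between the labelled groups. Of the pyramidal lineage markers, 10 of 10 had positive log2 differences in the libraries labelled *Mtg8* mutant, with 0 called by limma, 2 (*Neurod2* and *Emx1*) called by DESeq2 and 4 higher at an unadjusted p under 0.05, as were 3.06% of all genes tested. Their summed level was 5226 to 13227 normalized counts in the controls and 8265 to 20745 in the labelled mutants, with overlap. Of the radial glia markers, 7 of 8 were positive, 4 were higher at an unadjusted p under 0.05 and 0 were called by either tool, with sums of 6018 to 7406 and 7859 to 12230. The MGE interneuron markers summed to 61686 to 62560 in the controls and 38360 to 40746 in the labelled mutants. Of these 10 markers 5 were lower at an unadjusted p under 0.05, as were 2.44% of all genes tested. limma called 0 of them, and DESeq2 called 2, *Sst* and *Npy*, lower. The CGE interneuron markers summed to 2338 to 2434 and 2605.5 to 3119, with 5 of 6 positive, 2 higher at an unadjusted p under 0.05, 0 called by limma and 1 (*Sp8*, log2 difference 1.45) called higher by DESeq2. Of 7 GABAergic markers 6 had negative log2 differences, with 0 called by either tool and 2 (*Gad2* and *Dlx1*) lower at an unadjusted p under 0.05, and their sums overlapped at 30467 to 34318 and 18680 to 35962. The oligodendrocyte precursor markers were low and overlapped, at summed levels of 6.40 to 304 and 51.0 to 525.94, with positive log2 differences for 4 of the 4 tested and a median of 2.03. limma called 0 of these and DESeq2 0 of the 3 to which it gave an adjusted p, and 2 (*Pdgfra* and *Olig2*) were higher at an unadjusted p under 0.05 in limma. The red blood cell markers were positive for 5 of 5, with 1 (*Hbb-y*) higher at an unadjusted p under 0.05 and 0 called by either tool, and their sums overlapped at 10845 to 27162 and 15493 to 31665. The microglia markers were positive for 4 of the 5 tested, with 0 called by either tool. Their sums overlapped, at 6.85 to 803 in the controls and 56.6 to 133 in the labelled mutants. The endothelial markers were positive for 2 of the 3 tested, with 0 called by either tool, and their sums overlapped at 42.5 to 202 and 57.8 to 163. No marker of these lists was at 0 in all libraries. The part of cell composition in the differences of *Grik1*, *Grik2*, *Grik3* and *Neto1* was not tested. In the *Lhx6* table the pyramidal markers summed to 16067 to 21322 in controls and 12797 to 17391 in mutants, with 0 of 10 called by limma, 1, *Fezf2*, called lower by DESeq2 (log2 difference -0.56) and 4 lower at an unadjusted p under 0.05, as were 5.63% of all genes tested.

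Levels of different genes were compared per length, as reads per kb of exon per 1000000 reads. In *Lhx6* controls *Neto2* had the highest level, 22.3 ± 2.91 (SD, n = 4), and *Neto1* the next, 11.5 ± 2.68. *Grik1* followed at 6.38 ± 1.62, *Grik5* at 4.39 ± 1.54, *Grik3* at 3.93 ± 1.67 and *Grik2* at 2.78 ± 0.439, and the ranges of each neighbouring pair among these 4 overlapped. *Grik4* was last at 0.0926 ± 0.0738. The libraries did not overlap between *Neto2* and *Neto1*, between *Neto1* and *Grik1*, or between *Grik2* and *Grik4*.

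The order differed in *Mtg8* controls. *Grik1* was at 12.5 ± 0.984 (SD, n = 3), *Neto1* at 11.3 ± 3.38, *Neto2* at 9.49 ± 1.96 and *Grik3* at 8.73 ± 1.38 reads per kb and 1000000 reads, and each of these neighbouring pairs overlapped. *Grik2* at 4.05 ± 0.274, *Grik5* at 0.670 ± 0.350 and *Grik4* at 0.110 ± 0.0540 came next, each separate from the gene above it. As a ratio, the gap between the control groups was widest for *Grik5*, whose lowest *Lhx6* control was at 2.81 and whose highest *Mtg8* control was at 0.875 reads per kb and 1000000 reads. *Neto2* was also higher in every *Lhx6* control (18.73 to 25.7) than in every *Mtg8* control (7.95 to 11.7), *Grik1*, *Grik2* and *Grik3* were lower in every *Lhx6* control, and *Neto1* and *Grik4* overlapped. Such gaps were common: of 15629 genes tested in both tables, 4751 (30.4%) were higher and 2607 (16.7%) lower in every *Lhx6* control than in every *Mtg8* control. Both control groups were labelled wild type for the gene targeted in their table, and mouse line, litter and table cannot be told apart between them. *Mtg8* control 4, whose name is undated like those of all *Lhx6* controls, was at 0.266 for *Grik5*, against 2.81 to 6.49 in the *Lhx6* controls. The summed levels of 5 marker lists also did not overlap between the control groups, in tables that were normalized separately. The pyramidal lineage markers were at 16067 to 21322 normalized counts in *Lhx6* controls and 5226 to 13227 in *Mtg8* controls, the radial glia markers at 8909 to 10935 and 6018 to 7406, and the CGE interneuron markers at 2474 to 3450 and 2338 to 2434. The MGE interneuron markers were at 37729 to 44165 and 61686 to 62560, and the GABAergic markers at 19203 to 26631 and 30467 to 34318. Their part in the differences of the members between the control groups was not tested.

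**Figure D3:**
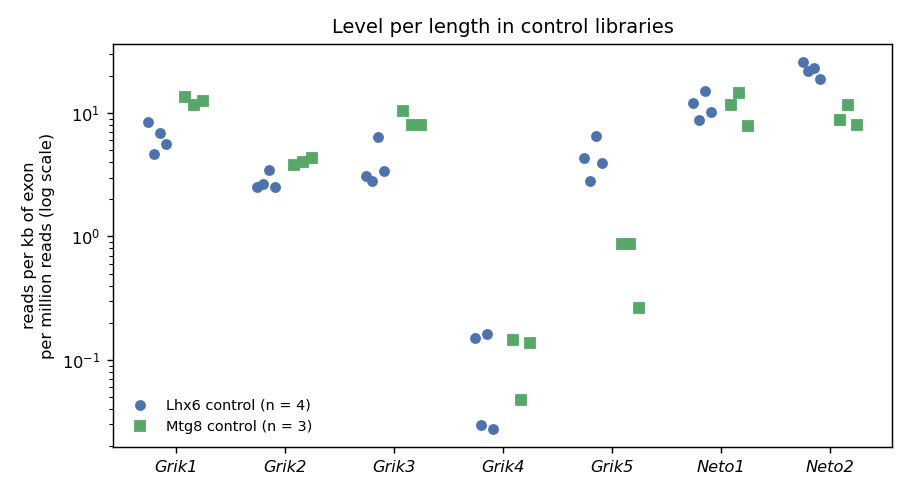
Level per length of each gene in the control libraries, as reads per kb of exon per 1000000 reads (y axis, log scale), with 1 point per library. Circles are *Lhx6* controls and squares are *Mtg8* controls. *Grik5* lies between 2.81 and 6.49 in *Lhx6* controls and between 0.266 and 0.875 in *Mtg8* controls, while *Neto1* overlaps.

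Shares within a library do not depend on how the tables were scaled. *Grik2* made up 13.6% to 20.3% of the *Grik1* to *Grik5* level per length in *Lhx6* controls and 3.93% to 7.66% in *Lhx6* mutants, with no overlap. *Grik1* made up 29.5% to 45.2% and 22.8% to 50.3%, and *Grik5* 21.6% to 27.7% and 16.2% to 36.8%. Thus *Grik2* went from a mean of 16.2% to 5.68%, while the shares of *Grik1* and *Grik5* overlapped between the groups. In *Mtg8* controls *Grik1* made up 47.2% to 49.8%, and in the libraries labelled *Mtg8* mutant 35.4% to 41.8%, again with no overlap, whereas *Grik5* was at 1.05% to 3.56% and 2.14% to 5.71%. The share of *Grik4*, which rested on 33 reads or fewer, was separate in the other direction, at 0.195% to 0.54% in controls and 0.695% to 1.5% in the labelled mutants.

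*Neto1* made up 32.0%, 28.7%, 39.3% and 35.3% of the summed *Neto1* and *Neto2* level in *Lhx6* controls 1 to 4. In *Lhx6* mutants 1, 2, 3, 5 and 6 it made up 1.64%, 3.17%, 2.19%, 0.958% and 0.803%, so almost all auxiliary subunit transcripts in the mutants were *Neto2*. The ratio of the summed Neto level to the summed Grik level was 1.63 to 2.35 in *Lhx6* controls and 0.67 to 1.1 in *Lhx6* mutants. In the *Mtg8* table the *Neto1* share overlapped, at 49.6% to 56.9% in controls and 38.6% to 55.7% in the labelled mutants. The ratio overlapped there as well, at 0.624 to 1.07 and 0.753 to 1.32.

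**Figure D4:**
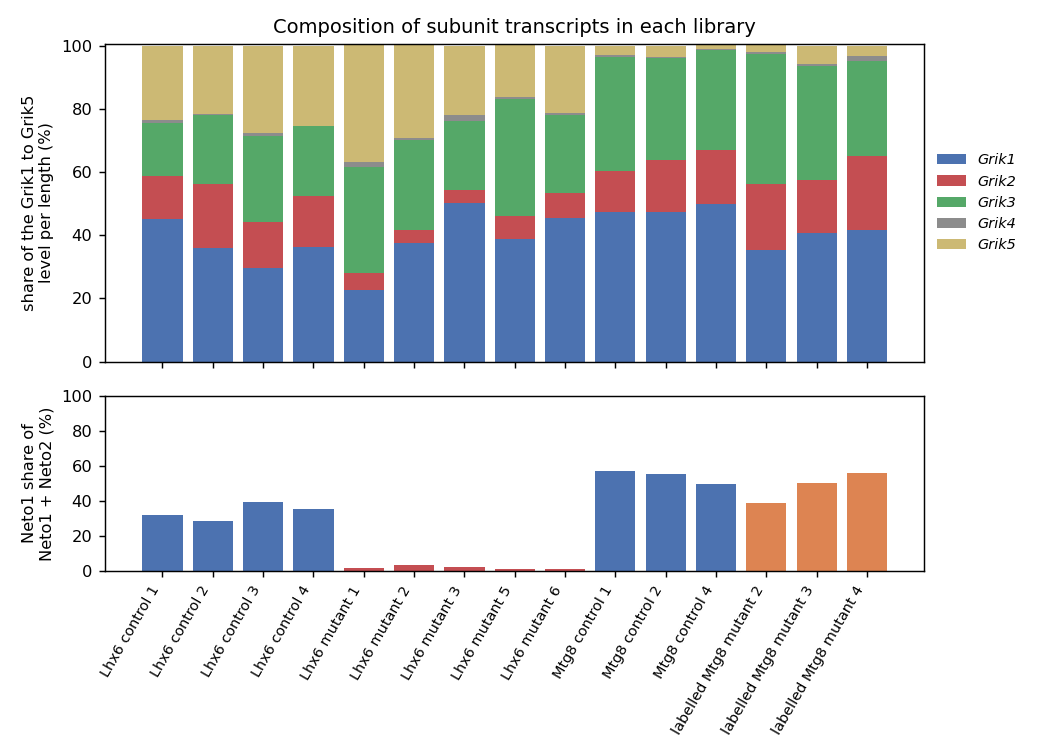
Composition of subunit transcripts in each of the 15 libraries, from levels per length. The upper bars give the share of each Grik gene in the *Grik1* to *Grik5* sum (%), and the lower bars the share of *Neto1* in *Neto1* plus *Neto2* (%). The *Grik2* segment is 3.93% to 7.66% in *Lhx6* mutants, and *Neto1* is at most 3.17% there.

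Other genes of glutamate receptors were counted from lists made for this family. In *Lhx6* mutants 2 of the 3 AMPA receptor subunit genes tested were called lower by limma and by DESeq2, *Gria1* and *Gria4*, which encode channel-forming subunits. In normalized counts *Gria1* fell from 8249.7 ± 1707 (SD, n = 4) to 3049 ± 663 (n = 5), with a log2 difference of -1.44. *Gria4* fell from 1764 ± 232 to 923 ± 259, with a log2 difference of -0.98. Of 13 AMPA receptor auxiliary genes, limma called 2 lower and 0 higher, and DESeq2 called 2 lower and 1 higher (*Cacng2*, log2 difference 0.62). *Cacng3*, a transmembrane AMPA receptor regulatory protein gene, fell from 913 ± 155 to 19.4 ± 14.0 with a log2 difference of -5.87. *Syndig1*, whose product associates with AMPA receptors at synapses, fell from 1407 ± 190 to 170 ± 46.0, with a log2 difference of -3.08.

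limma called 0 genes among the 4 NMDA receptor subunits, 1 delta receptor, 6 metabotropic glutamate receptors and 12 kainate receptor partners (scaffolds, trafficking and editing factors) tested in the *Lhx6* table. DESeq2 called 1 metabotropic receptor, *Grm4* (log2 difference 1.63), and 1 partner, the scaffold gene *Dlg1* (0.88), higher. At an unadjusted p under 0.05 in limma, 942 (5.63%) of all genes tested were lower and 1190 (7.11%) higher. At that threshold 2 of the AMPA receptor auxiliary genes were lower and 2 higher. Among the NMDA receptor subunits 1 was higher, among the metabotropic receptors 2 were lower and 1 higher, and among the partners 1 was lower and 1 higher. The median log2 difference was -0.98 for AMPA receptor subunits, 0.41 for their auxiliary genes, 0.25 for NMDA receptor subunits, 0.15 for metabotropic receptors and 0.17 for the partners, beside -0.04 over all genes tested. From these 6 lists 0 genes were called in the *Mtg8* table by limma and by DESeq2. At an unadjusted p under 0.05 in limma, where 2.44% of all genes tested were lower and 3.06% higher, 1 of 3 AMPA receptor subunits, 1 of 3 NMDA receptor subunits, the 1 delta receptor tested and 1 of 6 metabotropic receptors were lower, 1 of 13 auxiliary genes was higher, and 0 of 12 partners were either. There *Gria1* had a log2 difference of -0.77 (standard error 0.20), *Gria4* -0.20, *Cacng3* -0.21 and *Syndig1* -0.36.

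**Figure D5:**
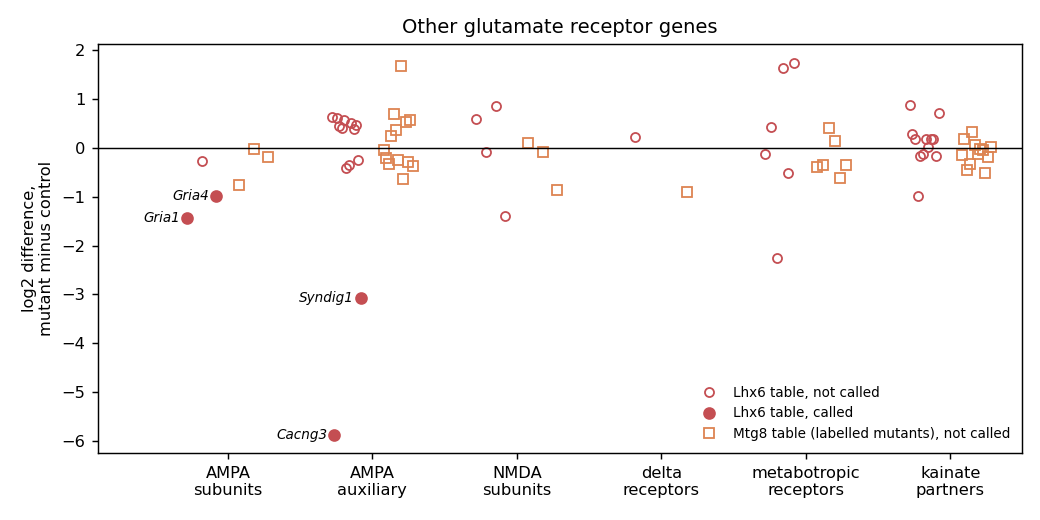
Log2 differences (y axis) of the other glutamate receptor genes that were tested, by list, with circles for the *Lhx6* table and squares for the libraries labelled *Mtg8* mutant. Filled and named points were called by limma. The 4 genes so called, *Gria1*, *Gria4*, *Cacng3* and *Syndig1*, were all lower in *Lhx6* mutants.

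For the members called in the *Lhx6* table, the genes with the most similar profile were found by the root mean square difference of log2 values, each gene relative to its control mean, over the 9 libraries. The 3 genes nearest to *Neto1* were *Lhx6* (0.786), *Gucy1a1* (0.92) and *9430021M05Rik* (1.0), a distance that includes the difference between mutants and controls for which the family was chosen. *Gucy1a1*, which encodes a soluble guanylate cyclase subunit, went from 1550.3 to 79.9 normalized counts. The 3 genes nearest to *Grik2* were *Cttnbp2* (0.191), *Wsb1* (0.23) and *Ankrd16* (0.241). *Cttnbp2*, which encodes a cortactin-binding protein of dendritic spines, had a log2 difference of -1.06.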

How the data were processed

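RNA from sorted cells was made into libraries with a low-input cDNA kit and sequenced as single reads. For trimming the authors used fastp 0.20.1, for alignment STAR 2.7b and for counts per gene featureCounts 1.6.4, with GENCODE annotation of GRCm38, and they removed sex-linked genes. The signal that the authors deposited is the count divided by a size factor per library, normalized separately in each table. All values (100%) were whole multiples of 1 read within 0.01, so reads were recovered. The exon length that the authors deposited was used for levels per length. The authors' own columns of fold changes and p-values from DESeq2 were not used, and 0 columns were left without a sample.

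In R 4.3.3, limma 3.58.1 was fitted, with its trend of variance on mean, to log2(normalized count + 1) over genes with a mean of at least 10, in each table alone, two-sided, with Benjamini-Hochberg adjustment over all genes and a threshold of 0.05. Fold changes on this scale understate those of low genes. The fits were tested on simulated data. edgeR 4.0.16 and DESeq2 1.42.0 on recovered reads were alternatives, beside other pseudocounts, filters and scalings, a replicate block, name style and each library left out. Named genes were all members, the targeted genes, genes overlapping their exons, called genes of the pathway lists and the 3 nearest profiles per called member. Marker genes, pathway genes called by DESeq2 alone and *Ftl2-ps* were named after their values were seen. The members and lists were chosen with earlier results of these data known. Replicates were separate embryos, and their number limits precision. Reads carry no molecular identifiers. Promoter windows came from RefSeq; entries for *Grik1* and *Neto1* were not used here.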

Additional observations from a re-analysis of the deposited data

Results flagged for a closer look

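*Grik2* in *Lhx6* control 3, at 687 normalized counts, lay far from the other 3 controls relative to the range of the group. Among 32 groups of values screened in this way chance marks about 1 in 20. The *Grik2* difference kept its direction and call without this library.

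*Grik1* and *Grik3* had log2 differences of opposite sign in the 2 tables, and limma on all libraries called neither gene in either table. In the *Mtg8* table *Grik1* was called lower by DESeq2, by limma with the replicate block and by limma without labelled mutant 2. The log2 difference of *Grik1* was 0.49 in *Lhx6* mutants, each of the 5 being above the mean log2 value of the controls. It was -1.20 in the *Mtg8* table, each of the 3 labelled mutants being below that mean. That of *Grik3* was 0.84 and -0.82 in the same order, with the same split of libraries, and it was 0.15 in *Lhx6* mutants with name style as a covariate. With equal totals the values were 0.44 and -1.13 for *Grik1* and 0.79 and -0.75 for *Grik3*. The difference between the tables was not tested, and mouse line and litter cannot be told apart.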

How the results depend on the processing

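In the *Lhx6* table, 2 members were called lower in the fits run, except that 1, *Neto1*, was called with name style as a covariate and 1 with the replicate block. With the covariate 42 genes were called lower and 15 higher over all genes, against 114 and 172. Without each library in turn the count stayed at 2. For the *Mtg8* table the count was 0, except that 1, *Grik1*, was called by DESeq2, 1 with the replicate block, and 1 without labelled mutant 2; leaving out each library gave 0 to 1. Same-numbered embryos are different animals whose deviations correlated at -0.154 to 0.0717 (*Lhx6*) and 0.138 to 0.159 (*Mtg8*), so numbers were not taken as pairs, and over all genes 37 were called lower and 49 higher with the block in the first table, and 12 and 88 against 0 and 0 in the second. Without labelled mutant 2, 4 genes were called lower and 83 higher. The cause was not tested.

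The log2 differences of the members kept their direction in all alternatives but those of *Grik5* (within undated names in both tables, and with name style as a covariate in the *Lhx6* table) and of *Grik4* in the *Mtg8* table, which was -0.04 without control 2. The order of levels per length had 2 members out of place in *Lhx6* control 2 alone, and 2, 3 and 2 in *Mtg8* controls 1, 2 and 4 alone. Rescaling moved the median of all genes by less than 0.1. *Grik4*, with 3 to 49 reads, is limited by depth.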
